A study of Mus musculus with 8 samples.

Results

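The nuclear genes for subunits of the mitochondrial respiratory chain were followed in liver of 5-week-old mice. Members were the rows of the deposited gene table whose symbol starts with Ndufa, Ndufb, Ndufc, Ndufs, Ndufv, Uqcr, Cox4 to Cox8 or Atp5, or is Sdha, Sdhb, Sdhc or Sdhd, with the assembly factors that start with Ndufaf left out. This gave 83 of 19348 genes, of which 38 were assigned by symbol to complex I, 4 to complex II, 8 to complex III, 16 to complex IV and 17 to complex V. RNA of whole liver tissue had been sequenced in 5 libraries labelled Stab1 knock-out and 3 labelled wild-type, all from mice aged 5 weeks. Stab1 encodes stabilin-1, which clears waste molecules at the surface of sinusoidal endothelium, and its loss is the only difference between the groups that the labels give. Strain, sex, the kind of Stab1 allele and the animal behind each library are not stated in the labels, so a p-value here rests on the spread from library to library, part of which may be technical. Levels are given as RPKM, reads per kilobase of gene length per M counted reads, which allows levels to be compared between genes as far as reads cover their deposited length, and log2 fold changes as knockout minus wild type.

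The respiratory chain passes electrons from NADH and succinate to oxygen and uses the energy to pump protons across the inner mitochondrial membrane. Complex I (NADH dehydrogenase) and complex II (succinate dehydrogenase) feed electrons to ubiquinone, complex III hands them to cytochrome c, and complex IV (cytochrome c oxidase) reduces oxygen. Complex V (ATP synthase) lets the protons flow back and makes ATP. Every complex except complex II also holds subunits encoded by mitochondrial DNA, which are not analysed here, and the nuclear subunits fall into catalytic or core proteins and many small accessory proteins. Hepatocytes are rich in mitochondria and use this ATP for urea, glucose and lipid synthesis.

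Stab1 itself was nearly absent from all knockout libraries, with 5 to 16 reads per library against 474 to 594 in wild-type libraries (log2 fold change -5.38, SE 0.22, edgeR adjusted p = 3.14e-06, exact two-sided permutation p = 0.0179, the smallest that 5 against 3 libraries allow). Knockout libraries held 4.85 to 10.5 M counted reads and wild-type libraries 10.1 to 10.8 M. Knockout library 1 stood apart: it was the shallowest, and Xist, the female-specific RNA, had 3 reads in it and 4445 to 8222 in each of the others, and Ddx3y, on the Y chromosome, had 320 reads in it and 0 to 4 in the others. The main counts and medians over the members, the fold changes of the main named members and the medians of other lists are therefore also given without it. Hepatocyte markers were abundant in all libraries. In CPM, reads per M counted reads, they were at 74616 to 128671 CPM over the knockout libraries and 140486 to 151874 CPM over the wild-type ones summed over 6 genes.

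Most respiratory chain transcripts had a higher mean in knockout than in wild-type liver, by a small amount, and no single one passed the test. Of the 83 members, 79 had enough reads to be tested, and 72 of these had a positive log2 fold change (knockout minus wild type), against 49.1% of all 12338 tested genes. The median log2 fold change was 0.35 over the 79 members and -0.0065 over all tested genes, and single members ran from -0.35 (Ndufa4l2) to 1.12 (Uqcrq). By edgeR, 0 members passed an adjusted p of 0.05, with 0.254 (Uqcr10) as the smallest adjusted p, where 0.227% of all tested genes passed in either direction and 0.0729% on the higher side. At an unadjusted p below 0.05, 31 members were on the higher side against 7.73% of all tested genes, and 0 on the lower side against 5.9%. The DESeq2 Wald test called 1 member, Uqcr10 (adjusted p = 0.0249), where it called 0.543% of all tested genes higher, and 35 members were on the higher side at an unadjusted p below 0.05 against 8.51%. The unadjusted count by edgeR depended on single libraries. It was 4 (against 3.11% of all tested genes) without wild-type library 1, 3 (against 2.75% of all tested genes) without library 2 and 55 (against 12.1% of all tested genes) without library 3. Among the knockout libraries it was 13 (against 4.61% of all tested genes) without library 2, 17 (against 5.27% of all tested genes) without library 4 and 15 (against 4.81% of all tested genes) without library 5. In the fit without wild-type library 3, 73 members were positive against 50.7% of all tested genes, and 0 were called. In bulk tissue, fewer cells of a type and less RNA per cell cannot be told apart.

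Of all counted reads, the members took 1.36, 1.79, 1.41, 1.62 and 1.59% in knockout libraries 1 to 5 and 1.17, 1.14 and 1.40% in wild-type libraries 1 to 3. The shares in knockout libraries 2 to 5 lay above all 3 wild-type shares, while knockout library 1 fell between wild-type libraries 2 and 3. All 5 knockout values lay above all 3 wild-type values in 11 of 79 members, against 4.26% of all tested genes, and below them in 0, against 2.72%. These 11 were Ndufab1, Ndufs5, Ndufs7, Ndufv1, Sdhb, Uqcr10, Cox5a, Cox5b, Cox8a, Atp5g1 and Atp5o. All statements on overlap here and below leave out the scaling between libraries of the edgeR fit (TMM). Its factor was 1.06 in knockout library 1 and 0.986 in wild-type library 3, so it lowers the first against the second. Narrow separations, such as that of Sdhb (179 RPKM in knockout library 1, 174 RPKM in wild-type library 3), depend on leaving it out. The overlap counts were not repeated with it. Without knockout library 1 the counts were 27 above, against 10.2% of all tested genes, and 2 below (Sdha and Ndufs1), against 8.15%. Without that library the median log2 fold change of the members was 0.40, 71 were positive against 47.3% of all tested genes, and 0 members were called by edgeR (smallest adjusted p 0.0655, Uqcr10), with 45 on the higher side at an unadjusted p below 0.05 against 13.2% of all tested genes. DESeq2 without it called 24 of 79 members higher and 0 lower, a setting chosen after seeing the data, against 5.56% of all tested genes higher.

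**Figure D1:**
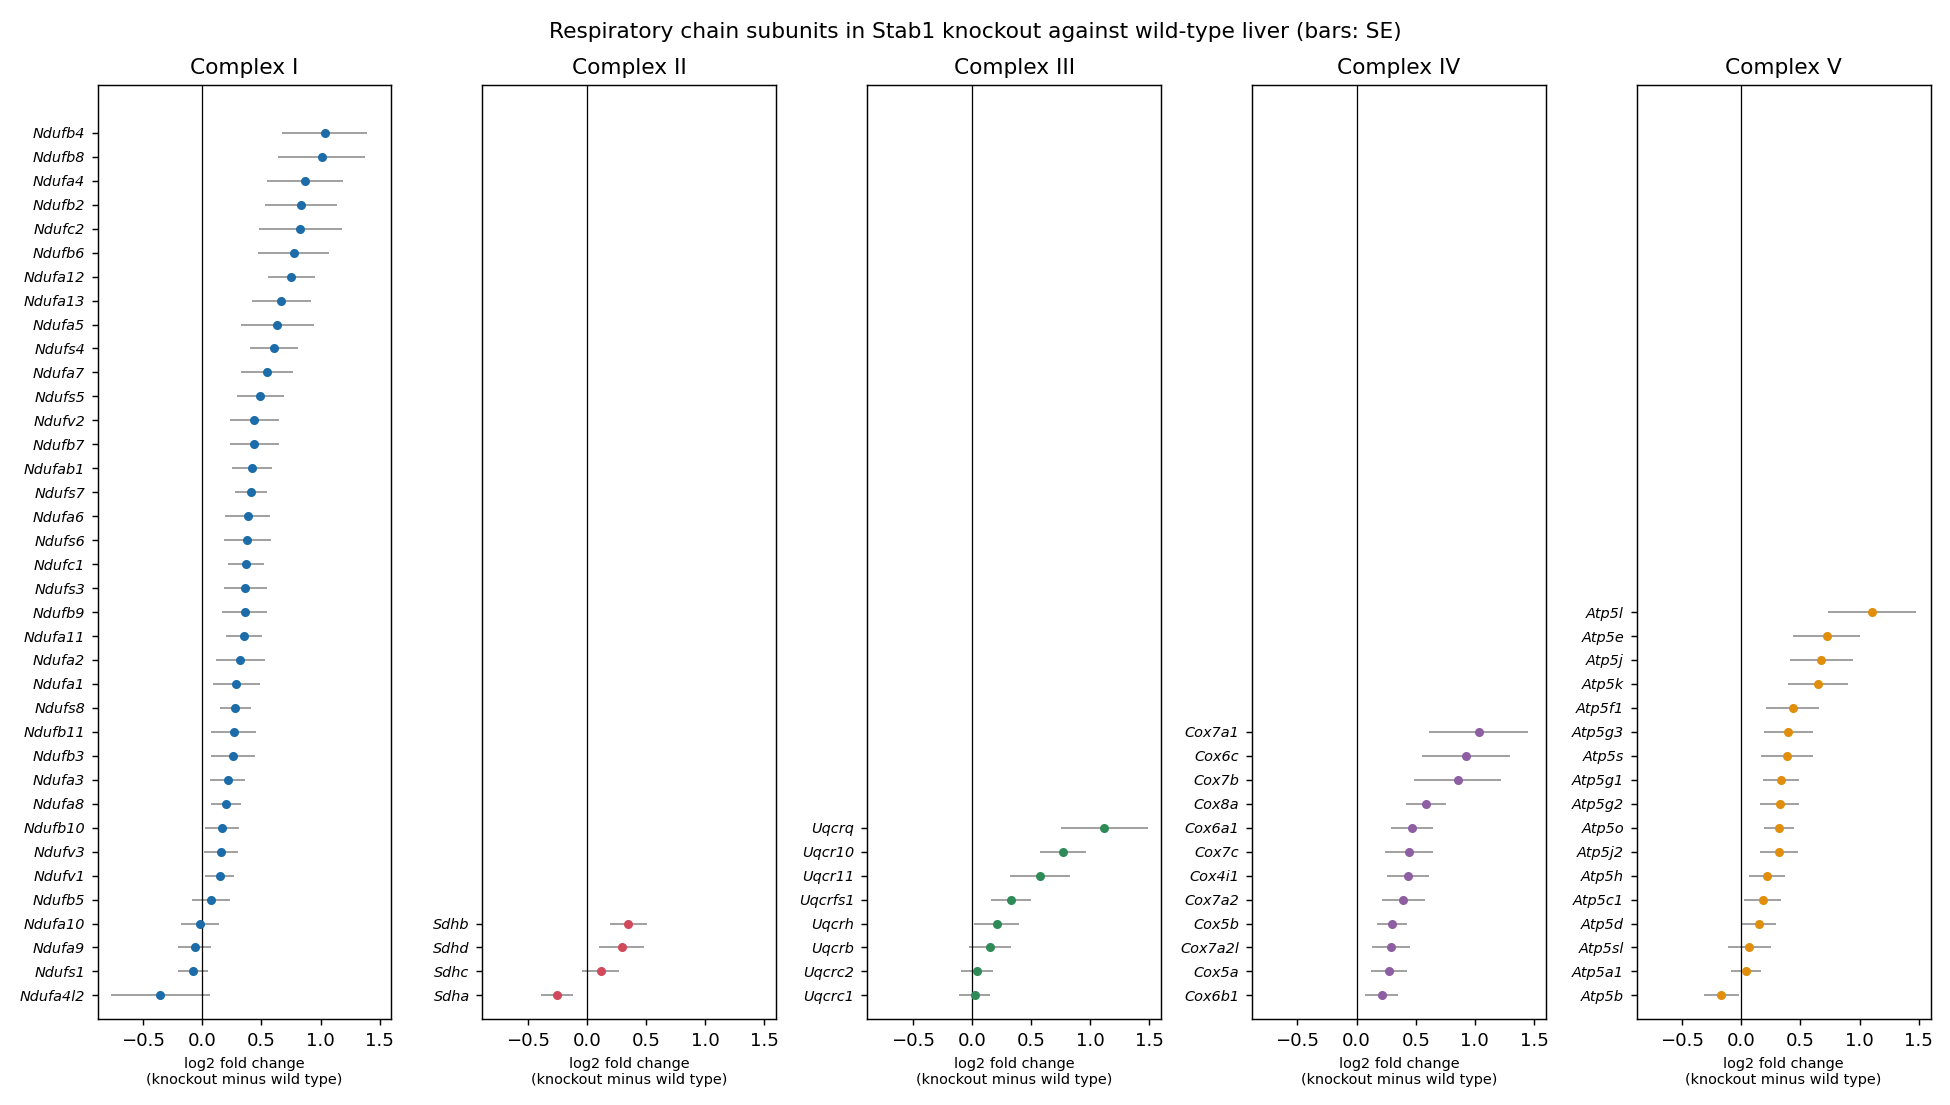
Log2 fold change (knockout minus wild type, x axis) of 78 of the 79 tested members, in 1 panel per complex, as points with bars of 1 SE from the edgeR fit. In each complex most points lie right of the line at 0, and the catalytic Sdha (-0.26) and Atp5b (-0.17) lie left of it.

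The shift was spread over the complexes. The median log2 fold change was 0.37 in complex I (33 of 38 positive), 0.20 in complex II (3 of 4), 0.27 in complex III (8 of 8), 0.44 in complex IV (12 of the 12 tested) and 0.33 in complex V (16 of 17). A contrast of about the same size stood between kinds of subunit. The 17 core or catalytic subunits of complexes I, II and III and of the ATP synthase head had a median of 0.15, with 13 positive, and the 62 other members one of 0.38, with 59 positive. The core genes also have the longer transcripts, with a median deposited length of 1572 bases against 586 in the others. With the length correction described further on, the medians were 0.039 for the core (10 of 17 positive) and 0.0081 for the others (31 of 62). Without knockout library 1 and without that correction, the medians of complexes I to V were 0.41, 0.28, 0.32, 0.52 and 0.37. Those of the core and the other members were then 0.17 and 0.44. All these medians are descriptions, and the differences between them were not tested.

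Wild-type libraries 1 and 2 were low, and wild-type library 3 lay among the knockout libraries. On the log2 CPM scale, the median deviation of the 79 members from the mean of both groups was -0.089, 0.41, 0.053, 0.29 and 0.20 in knockout libraries 1 to 5 and -0.34, -0.34 and 0.077 in wild-type libraries 1 to 3. Knockout libraries 2, 4 and 5 stood highest, knockout library 3 close to wild-type library 3, and knockout library 1 between wild-type library 3 and the other two. All tested genes shorter than 1000 bases had nearly the same medians, -0.12, 0.40, 0.050, 0.30 and 0.26 in knockout libraries 1 to 5 and -0.35, -0.31 and 0.084 in wild-type libraries 1 to 3, and 53 of these 854 genes are members. Genes over 4000 bases had the opposite signs in all 8 libraries, 0.079, -0.17, -0.035, -0.14 and -0.067 in knockout libraries 1 to 5 and 0.14, 0.10 and -0.065 in wild-type libraries 1 to 3. The median percent of gene length covered by reads in tested genes was 64.9, 73.0, 80.1, 75.1 and 74.1% in knockout libraries 1 to 5 and 82.1, 82.4 and 77.5% in wild-type libraries 1 to 3. Knockout library 1 had the lowest coverage and the fewest counted reads (4.85 M) of all, and its members were not high (-0.089). Among the other 7 libraries coverage was lowest in knockout libraries 2, 5 and 4, the 3 with the highest members. These 3 also had the fewest counted reads of the 7, at 9.24, 8.94 and 9.42 M, against 10.1 to 10.8 M in the rest. The part of read coverage or depth in the levels of the members was not tested.

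**Figure D2:**
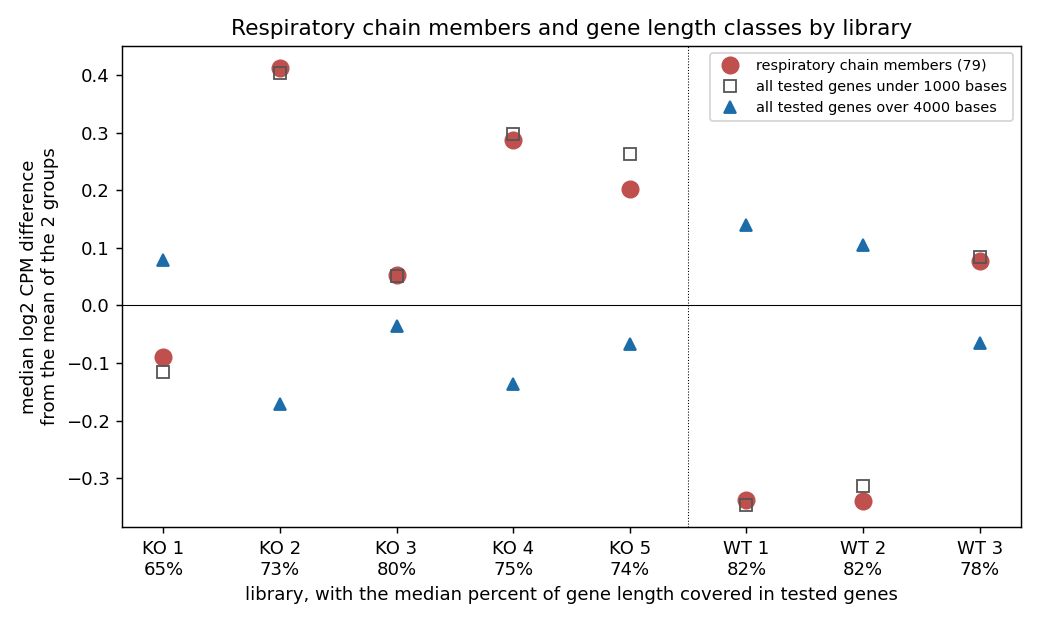
Median log2 CPM difference from the mean of both groups (y axis) in each library (x axis, with the median coverage of tested genes under its name) for the 79 tested members, for all tested genes under 1000 bases and for those over 4000 bases. The circles of the members and the squares of the short genes lie close together in every library, from -0.34 for the members in wild-type library 2 to 0.41 in knockout library 2, and the triangles of the long genes lie on the other side of 0.

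Complex II, the one complex encoded wholly in the nucleus, held members on both sides of 0. Sdha, the flavoprotein that oxidises succinate, was at 195, 148, 157, 149 and 156 RPKM in knockout libraries 1 to 5 and 201, 189 and 181 RPKM in wild-type libraries 1 to 3. The knockout libraries other than library 1 were all below the wild-type range, and library 1 was inside it. Its mean was 161 ± 19.5 RPKM (SD, n = 5) in knockout and 190.3 ± 10.4 RPKM (SD, n = 3) in wild-type liver (log2 fold change of -0.26 with SE 0.14, edgeR adjusted p = 0.407, and -0.32 without knockout library 1). Sdhb, the iron-sulfur subunit that takes the electrons from Sdha, was at 179, 225, 194, 223 and 199 RPKM in knockout libraries 1 to 5 and 162, 142 and 174 RPKM in wild-type libraries 1 to 3. All knockout values lay above all wild-type values for Sdhb in RPKM without the TMM scaling. Its means were 204 ± 19.7 RPKM (SD, n = 5) in knockout and 159 ± 16.0 RPKM (SD, n = 3) in wild-type liver (log2 fold change of 0.35 with SE 0.15, edgeR adjusted p = 0.359, and 0.40 without knockout library 1). The membrane anchors, which hold the ubiquinone site, had log2 fold changes of 0.12 (SE 0.16) for Sdhc and 0.29 (SE 0.19) for Sdhd, and both overlapped between the groups. Sdhd had the highest level of the 4, at 239.9 ± 38.9 RPKM (SD, n = 5) in knockout and 195 ± 20.2 RPKM (SD, n = 3) in wild-type liver.

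Because the 4 proteins join in equal numbers, their transcripts were also set against each other within each library, which leaves out any scaling between libraries. The ratio of Sdhb to Sdha, both per length, was 0.918, 1.52, 1.24, 1.50 and 1.28 in knockout libraries 1 to 5 and 0.803, 0.753 and 0.963 in wild-type libraries 1 to 3. For Sdhd to Sdha it was 0.935, 1.95, 1.53, 1.56 and 1.65 in knockout libraries 1 to 5 and 0.943, 0.946 and 1.21 in wild-type libraries 1 to 3. Both ratios were above the wild-type range in knockout libraries 2 to 5, and in knockout library 1 Sdhb to Sdha was inside that range and Sdhd to Sdha just below it. In these ratios Sdha, of 2859 bases, is set against genes of 1091 and 1287 bases, and a ratio within a library shows unequal levels without telling which transcript differs.

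Nuclear respiratory factor 1 (NRF1) and the ETS factor GABPA are textbook activators of respiratory chain promoters, and their short motifs were searched in the members' promoters. The promoters of Sdha (chr13:74350191-74350490 on the minus strand, log2 fold change -0.26), Ndufb4 (chr16:37654319-37654618 on the minus strand, 1.04), Sdhd (chr9:50603800-50604099 on the minus strand, 0.29) and Cox8a (chr19:7217567-7217866 on the minus strand, 0.59) are shown from RefSeq, build GRCm38.p6, from 250 bases before to 50 bases after the gene start, 5′ to 3′ on the gene's strand. They were chosen after the values were seen, as members with 2 or more matches and unlike fold changes. Capitals mark matches on either strand to the NRF1 motif (GCGC, any base, then TGCGC) or to CCGGAAG (GABPA). The other motif searched was ATGGCGG, of YY1.
Sdha: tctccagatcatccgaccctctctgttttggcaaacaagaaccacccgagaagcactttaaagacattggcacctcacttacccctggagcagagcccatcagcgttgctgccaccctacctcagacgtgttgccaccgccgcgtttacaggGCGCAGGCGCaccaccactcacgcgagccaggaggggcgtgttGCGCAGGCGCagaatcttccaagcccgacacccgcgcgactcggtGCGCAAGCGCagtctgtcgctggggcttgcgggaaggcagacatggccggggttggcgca
Ndufb4: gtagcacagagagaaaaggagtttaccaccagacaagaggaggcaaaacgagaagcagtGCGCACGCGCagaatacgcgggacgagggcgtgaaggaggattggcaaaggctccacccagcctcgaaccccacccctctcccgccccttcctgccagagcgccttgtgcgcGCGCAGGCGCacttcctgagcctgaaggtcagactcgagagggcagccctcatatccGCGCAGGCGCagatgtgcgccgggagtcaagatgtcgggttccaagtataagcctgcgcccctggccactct
Sdhd: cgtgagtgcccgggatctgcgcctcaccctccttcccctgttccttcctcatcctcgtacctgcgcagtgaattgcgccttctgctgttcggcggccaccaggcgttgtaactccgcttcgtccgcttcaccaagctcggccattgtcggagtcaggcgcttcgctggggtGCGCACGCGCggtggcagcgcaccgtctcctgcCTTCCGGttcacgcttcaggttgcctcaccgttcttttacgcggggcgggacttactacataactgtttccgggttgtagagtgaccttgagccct
Cox8a: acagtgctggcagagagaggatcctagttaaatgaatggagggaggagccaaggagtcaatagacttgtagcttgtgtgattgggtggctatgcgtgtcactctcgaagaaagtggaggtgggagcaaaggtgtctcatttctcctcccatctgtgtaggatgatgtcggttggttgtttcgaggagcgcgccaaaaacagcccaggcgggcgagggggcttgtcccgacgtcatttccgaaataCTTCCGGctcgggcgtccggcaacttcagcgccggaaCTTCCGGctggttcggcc
Sdha and Ndufb4 each hold 3 NRF1 matches and Sdhd 1 match to each of the NRF1 and GABPA motifs, while Cox8a holds 2 GABPA matches. Promoters were found for 69 of the 83 members. An NRF1 match stood in 24.6% of these, against 11.4% of tested genes with a promoter in the table. A GABPA match stood in 23.2% against 19.8%, and a YY1 match in 15.9% against 9.44%. No match to one motif overlapped a match to another in the members' promoters. The median log2 fold change was 0.35 with (17 members) and 0.38 without a match for the NRF1 motif, 0.46 with (16 members) and 0.35 without a match for the GABPA motif and 0.38 with (11 members) and 0.37 without a match for the YY1 motif. It was 0.37 over the 37 tested members with any of the 3 motifs and 0.38 over the 30 without. A match is a run of letters and not a shown binding site, and these shares were not tested.

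In complex I the 7 core subunits, which carry the flavin and the iron-sulfur clusters, had a median log2 fold change of 0.28. Ndufs1, the largest of the iron-sulfur subunits, was at 53.4, 47.0, 47.4, 44.9 and 45.4 RPKM in knockout libraries 1 to 5 and 48.5, 47.4 and 53.6 RPKM in wild-type libraries 1 to 3. Its groups overlapped (log2 fold change of -0.078 with SE 0.12, edgeR adjusted p = 0.769, and -0.11 without knockout library 1). Ndufv1, which binds NADH and the flavin, was at 102, 108, 105, 105 and 107 RPKM in knockout libraries 1 to 5 and 97.1, 90.6 and 95.8 RPKM in wild-type libraries 1 to 3. It was nearly even within each group. Its knockout values were all narrowly above the wild-type ones in RPKM without the TMM scaling, with a log2 fold change of 0.15 (SE 0.12). Ndufs7, the core subunit next to the ubiquinone site, was also above without overlap, at 96.2 ± 6.98 RPKM (SD, n = 5) in knockout and 71.8 ± 6.20 RPKM (SD, n = 3) in wild-type liver (log2 fold change of 0.41 with SE 0.14, edgeR adjusted p = 0.331, and 0.45 without knockout library 1).

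The 31 accessory members of complex I had a median of 0.38, with 28 positive. Ndufb4, a small membrane-arm subunit, was at 107, 332, 151, 236 and 276 RPKM in knockout libraries 1 to 5 and 94.8, 94.3 and 135 RPKM in wild-type libraries 1 to 3. Knockout libraries 2, 4 and 5 were high, library 3 was a little above the wild-type range and library 1 inside it (log2 fold change of 1.04 with SE 0.36, edgeR adjusted p = 0.332, and 1.21 without knockout library 1). Ndufa12, an accessory subunit of the arm that reaches into the matrix, had another order, with 136, 121, 133, 110.0 and 70.8 RPKM in knockout libraries 1 to 5 and 59.3, 68.6 and 73.0 RPKM in wild-type libraries 1 to 3. Knockout libraries 1 and 3 were the highest here and library 5 overlapped the wild-type range (log2 fold change of 0.75 with SE 0.20, edgeR adjusted p = 0.282, and 0.70 without knockout library 1). Ndufs4, an accessory subunit whose loss destabilises the complex, was at 48.7, 74.3, 56.6, 65.7 and 62.5 RPKM in knockout libraries 1 to 5 and 34.8, 34.4 and 51.5 RPKM in wild-type libraries 1 to 3. Only the shallow knockout library 1 lay inside its wild-type range (log2 fold change of 0.61 with SE 0.20, edgeR adjusted p = 0.332, and 0.69 without knockout library 1). Log2 fold changes close to that of Ndufb4 were found for Ndufb8 (1.01, SE 0.37), Ndufb2 (0.83, SE 0.31) and Ndufc2 (0.83, SE 0.35), all of the membrane arm and named after their values were seen. Ndufa3, Ndufb3 and Ndufb10, also under 1000 bases, were at 0.21 (SE 0.15), 0.26 (SE 0.18) and 0.17 (SE 0.14).

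Ndufa4 was the most abundant complex I member by symbol, although its protein is also described as a subunit of complex IV. It was at 696, 1549, 742, 1082 and 1129 RPKM in knockout libraries 1 to 5 and 443, 460.4 and 806 RPKM in wild-type libraries 1 to 3. Knockout library 2 was the highest and knockout libraries 1 and 3 lay below wild-type library 3 (log2 fold change of 0.87 with SE 0.32, edgeR adjusted p = 0.333, and 0.99 without knockout library 1). Its paralogue Ndufa4l2, a hypoxia-induced protein, held 8, 12, 18, 23 and 6 reads in knockout libraries 1 to 5 and 20, 12 and 30 in wild-type libraries 1 to 3, and its groups overlapped (log2 fold change of -0.35 with SE 0.42, edgeR adjusted p = 0.690, and -0.36 without knockout library 1). Its log2 fold change was the lowest of the 79 members and was 0.056 without wild-type library 3.

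In complex III the core and the accessory members, which also differ in length, had different log2 fold changes. The core proteins Uqcrc1 and Uqcrc2, which face the matrix, had log2 fold changes of 0.023 (SE 0.13) and 0.043 (SE 0.13). Uqcrc1 was at 167, 133, 163, 155 and 133 RPKM in knockout libraries 1 to 5 and 149.9, 138 and 151 RPKM in wild-type libraries 1 to 3, and its groups overlapped. The Rieske iron-sulfur protein Uqcrfs1, which moves electrons towards cytochrome c1, was at 215 ± 23.1 RPKM (SD, n = 5) in knockout and 170.5 ± 23.0 RPKM (SD, n = 3) in wild-type liver (log2 fold change of 0.33 with SE 0.17, edgeR adjusted p = 0.396, and 0.39 without knockout library 1). Among the small accessory members, Uqcr10 was at 294, 402, 308, 376 and 359 RPKM in knockout libraries 1 to 5 and 182, 172 and 255 RPKM in wild-type libraries 1 to 3. All of its knockout values were above all wild-type values, with means of 348 ± 45.6 RPKM (SD, n = 5) in knockout and 203 ± 45.4 RPKM (SD, n = 3) in wild-type liver (log2 fold change of 0.77 with SE 0.19, edgeR adjusted p = 0.254, and 0.84 without knockout library 1). Uqcrq had the largest log2 fold change of all members, with 416, 1119, 561, 821 and 1006 RPKM in knockout libraries 1 to 5 and 283, 289 and 513 RPKM in wild-type libraries 1 to 3. Its knockout libraries 2 and 5 were highest, and knockout library 1 was below wild-type library 3 (log2 fold change of 1.12 with SE 0.37, edgeR adjusted p = 0.331, and 1.28 without knockout library 1). Uqcr11 was at 0.58 (SE 0.25), Uqcrh at 0.21 (SE 0.19) and Uqcrb, which has nearly the length of Uqcrq (503 and 511 bases), at 0.16 (SE 0.18). The ratio of Uqcrq to Uqcrb per length was 1.46, 3.37, 1.95, 2.50 and 4.05 in knockout libraries 1 to 5 and 1.20, 1.30 and 1.53 in wild-type libraries 1 to 3. It was above the wild-type range in knockout libraries 2 to 5 and inside it in library 1.

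In complex IV the main liver forms of the small subunits made up nearly all reads. Cox8a, a small membrane subunit, was at 398, 509, 398, 461 and 483 RPKM in knockout libraries 1 to 5 and 265, 282 and 346 RPKM in wild-type libraries 1 to 3. Its groups did not overlap, with means of 449.8 ± 50.2 RPKM (SD, n = 5) in knockout and 298 ± 42.8 RPKM (SD, n = 3) in wild-type liver (log2 fold change of 0.59 with SE 0.17, edgeR adjusted p = 0.301, and 0.64 without knockout library 1). Cox6a1, the liver form of a regulatory subunit and the complex IV member with the highest level, was at 627 ± 62.1 RPKM (SD, n = 5) in knockout and 449.7 ± 85.7 RPKM (SD, n = 3) in wild-type liver (log2 fold change of 0.47 with SE 0.18, edgeR adjusted p = 0.335, and 0.53 without knockout library 1). Cox6c was at 353, 1034, 446, 744 and 683 RPKM in knockout libraries 1 to 5 and 264, 282 and 485 RPKM in wild-type libraries 1 to 3. Knockout library 2 was far above the rest, and knockout libraries 1 and 3 were below wild-type library 3 (log2 fold change of 0.93 with SE 0.37, edgeR adjusted p = 0.341, and 1.09 without knockout library 1). Cox7b had a like order, with a log2 fold change of 0.85 (SE 0.37), while Cox6b1, which faces the intermembrane space, was at 0.21 (SE 0.14). Cox4i1, the first subunit to join the catalytic core among the nuclear ones, was at 546 ± 78.9 RPKM (SD, n = 5) in knockout and 403 ± 32.6 RPKM (SD, n = 3) in wild-type liver (log2 fold change of 0.44 with SE 0.18, edgeR adjusted p = 0.345, and 0.52 without knockout library 1). Cox7a2 had a log2 fold change of 0.39 (SE 0.18) and Cox7a2l, a factor of supercomplex assembly, one of 0.29 (SE 0.16).

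Forms restricted to other tissues were at or near the limit of detection. The 4 members that were not tested were all of this kind. Cox4i2, the lung form, had 0, 0, 0, 0 and 3 reads in knockout libraries 1 to 5 and 1, 0 and 0 in wild-type libraries 1 to 3. Cox6a2, the heart and muscle form, had 2, 0, 0, 1 and 0 reads in knockout libraries 1 to 5 and 0, 0 and 2 in wild-type libraries 1 to 3. Cox8b, also of heart, muscle and brown fat, had 2 reads in knockout library 2 and 0 in every other library, and its 0 of 5112 reads of Cox8a and Cox8b in wild-type liver allow a share of up to 0.0587%, the share of 3 reads, for counting error only. Cox6b2, the testis form, had 1, 6, 4, 6 and 3 reads in knockout libraries 1 to 5 and 0, 3 and 4 in wild-type libraries 1 to 3. Cox7a1, a heart and muscle form, was the one such gene with enough reads to be tested, with 3, 25, 22, 19 and 18 reads in knockout libraries 1 to 5 and 11, 7 and 12 in wild-type libraries 1 to 3. It made up 1.27% (95% exact interval 1.01% to 1.56%) of the reads of Cox7a1 and Cox7a2 in knockout and 0.793% (95% exact interval 0.536% to 1.13%) in wild-type liver, with intervals for counting error only. Its reads overlapped between the groups (log2 fold change of 1.03 with SE 0.42, edgeR adjusted p = 0.343, and 1.20 without knockout library 1). Beside this, skeletal muscle markers summed to 0.572 to 2.01 CPM over the knockout libraries and 0.556 to 1.09 CPM over the wild-type ones with Myh4 at 0 in all libraries, and fat markers to 7.02 to 13.6 CPM over the knockout libraries and 7.23 to 8.29 CPM over the wild-type ones with Ucp1 and Plin1 at 0. The part of these tissues in the Cox7a1 reads was not tested.

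In complex V the members of the catalytic head ran from negative to positive values. Atp5a1 and Atp5b encode the alpha and beta subunits that form the catalytic ring. Atp5a1 differed little between libraries, at 437, 425, 427, 433 and 408 RPKM in knockout libraries 1 to 5 and 439, 413 and 384 RPKM in wild-type libraries 1 to 3 (log2 fold change of 0.039 with SE 0.13, edgeR adjusted p = 0.895, and 0.042 without knockout library 1). Atp5b was at 731, 516, 633, 598 and 509 RPKM in knockout libraries 1 to 5 and 719, 665 and 612 RPKM in wild-type libraries 1 to 3. Knockout library 1 was above all wild-type libraries and libraries 2, 4 and 5 were below them (log2 fold change of -0.17 with SE 0.15, edgeR adjusted p = 0.596, and -0.24 without knockout library 1). Atp5e, the smallest subunit of the head, was at 289, 613, 344, 469 and 600.0 RPKM in knockout libraries 1 to 5 and 257, 254 and 334 RPKM in wild-type libraries 1 to 3. Its knockout libraries 2 and 5 were highest and only library 1 was inside the wild-type range (log2 fold change of 0.72 with SE 0.28, edgeR adjusted p = 0.340, and 0.85 without knockout library 1). In the membrane part, Atp5l (subunit g) was at 334, 859.7, 394, 607 and 834 RPKM in knockout libraries 1 to 5 and 217, 239.7 and 391 RPKM in wild-type libraries 1 to 3. Knockout library 1 was below wild-type library 3, and library 3 just above it (log2 fold change of 1.10 with SE 0.37, edgeR adjusted p = 0.332, and 1.26 without knockout library 1). Atp5k, the e subunit, had a log2 fold change of 0.65 (SE 0.26), and Atp5j, a coupling factor of the outer stalk, one of 0.68 (SE 0.27). Atp5h, another stalk member of 574 bases, was at 0.22 (SE 0.15).

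The rotor ring is built from subunit c, and 3 genes encode the same mature protein behind different targeting peptides. Atp5g3 had the highest level, at 657, 982, 699, 912 and 889 RPKM in knockout libraries 1 to 5 and 549, 552 and 779 RPKM in wild-type libraries 1 to 3. Atp5g1 was at 297 ± 31.5 RPKM (SD, n = 5) in knockout and 234 ± 6.72 RPKM (SD, n = 3) in wild-type liver. Its groups did not overlap in RPKM without the TMM scaling (log2 fold change of 0.34 with SE 0.15, edgeR adjusted p = 0.366, and 0.39 without knockout library 1). Atp5g2 had a log2 fold change of 0.33 (SE 0.16), against 0.40 (SE 0.21) for Atp5g3. As a share of the RPKM of the 3 genes, Atp5g3 made up 58.2% to 63.3% over the knockout libraries and 58.1% to 62.4% over the wild-type ones. For Atp5g1 the range was 20.3% to 22.8% over the knockout libraries and 19.4% to 24.4% over the wild-type ones, and for Atp5g2 15.9% to 19.0% over the knockout libraries and 17.3% to 18.3% over the wild-type ones. All 3 ranges overlapped between the groups. Of the members filed here by symbol alone, Atp5s and Atp5sl are not subunits of the enzyme, and their log2 fold changes were 0.39 (SE 0.22) and 0.068 (SE 0.18).

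**Figure D3:**
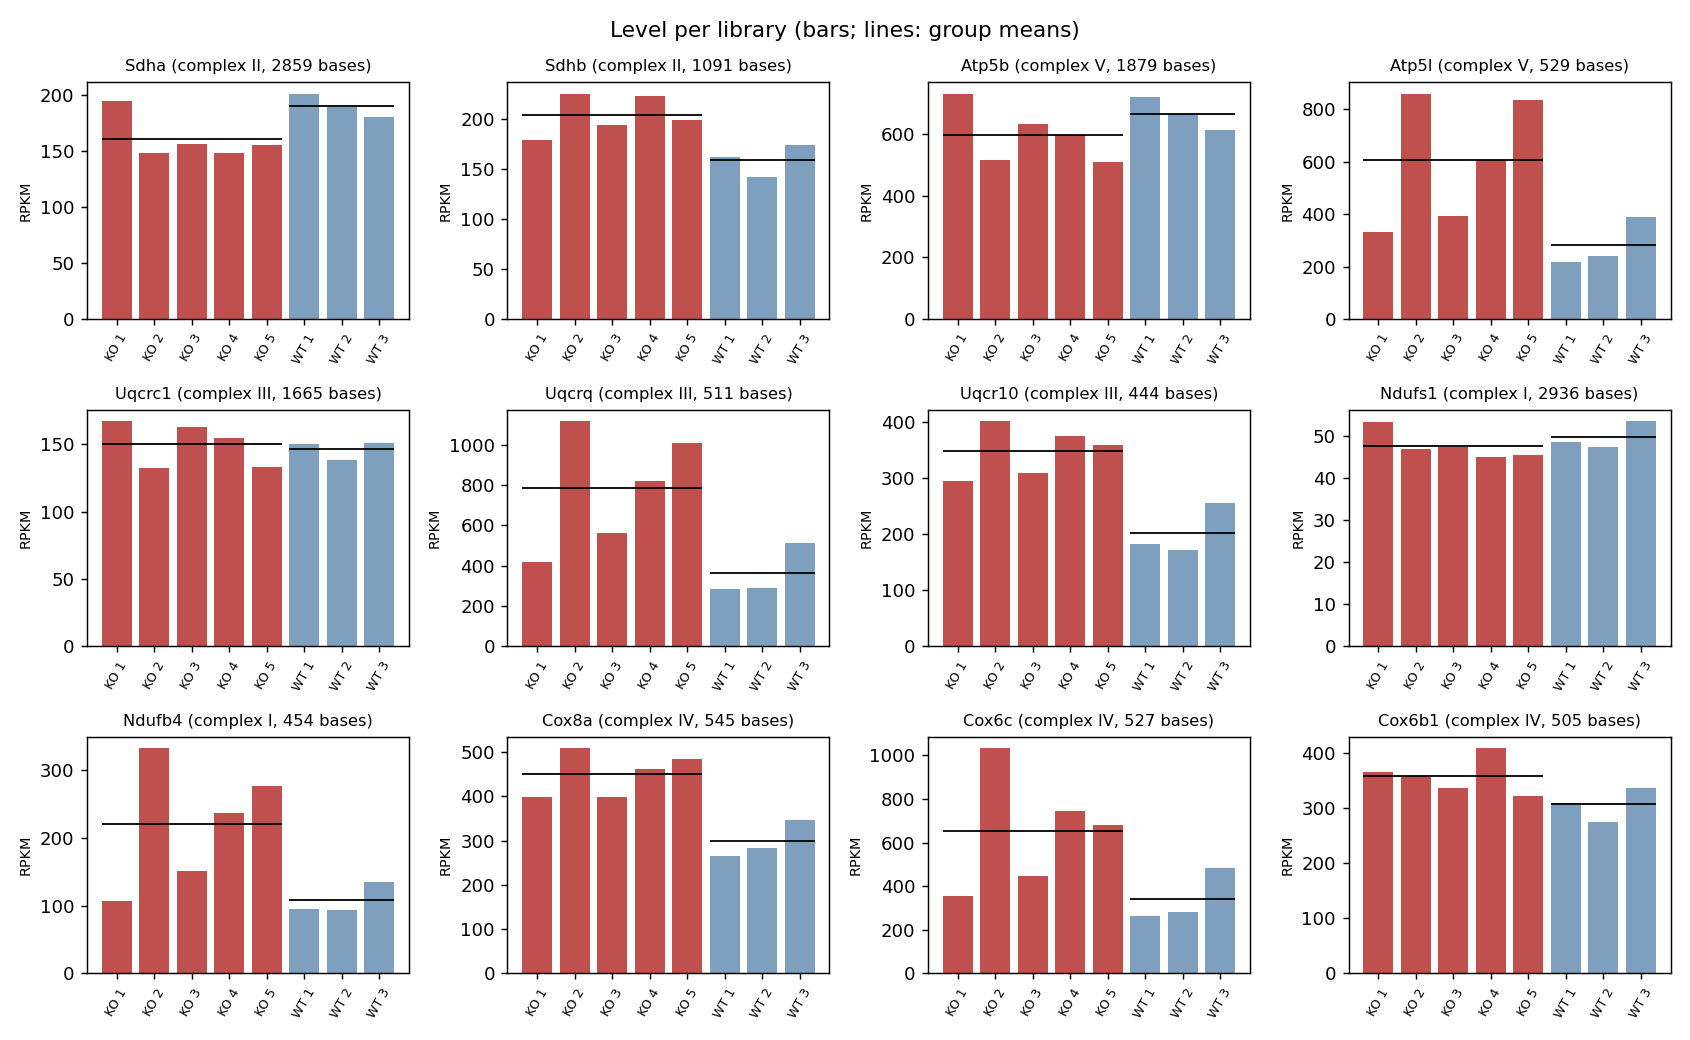
Level in RPKM (y axis, from 0) of 12 members in each knockout library (KO 1 to KO 5, red) and wild-type library (WT 1 to WT 3, blue), with a line at each group mean. Uqcr10, Cox8a and Sdhb have all red bars above all blue ones, the bars of Uqcrq, Atp5l, Ndufb4 and Cox6c are highest in KO 2 and overlap the blue ones in KO 1 or KO 3, or clear WT 3 only narrowly in KO 3, and Sdha is lower in KO 2 to KO 5.

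Gene length and log2 fold change were related in part over the members. Shorter members tended to have the larger log2 fold changes. The correlation of log2 length with log2 fold change was -0.56 (Spearman, over 79 members that share libraries) and -0.35 over all 12338 tested genes. Within complexes it was -0.49 in complex I, -0.67 in complex III, -0.30 in complex IV and -0.64 in complex V. The 53 tested members under 1000 bases had a median log2 fold change of 0.40, with 52 positive. All 854 tested genes under 1000 bases had a median of 0.37 (without knockout library 1, 0.45 for these members and 0.41 for all), with 90.5% positive. At an unadjusted p below 0.05, 26 of the 53 were on the higher side, against 31.4% of the 854, and 9 had all knockout values above all wild-type ones, against 10.5%. The 26 members of 1000 bases or more held 20 positive ones against 46% of all tested genes of that length, 5 on the higher side at an unadjusted p below 0.05 against 5.97%, and 2 with all knockout values above all wild-type ones against 3.8%. Of these, the 21 members of 1000 to 2000 bases had a median of 0.28, against 0.12 over 2820 genes. The 5 members over 2000 bases had one of 0.039, against -0.044 over the 5090 genes of up to 4000 bases. Genes over 4000 bases, among which there is no member, had a median of -0.13.

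When a trend of level on gene length was taken out of each library, the median of the members lay close to that of all tested genes. The trend was fitted in each library over all tested genes. Any difference between the groups that follows gene length, of whatever origin, is therefore taken out with it. The median log2 fold change of the members became 0.018, with 41 of 79 positive, against 48% of all tested genes. Complex medians then lay between -0.0054 (complex V) and 0.037 (complex IV). At an unadjusted p below 0.05, 5 members were higher, against 6.16% of all tested genes, and 0 lower. Without knockout library 1 as well, 15 members were higher, against 11.6% of all tested genes, and 5 lower. The smallest edgeR adjusted p was then 0.0937. The share of all tested genes on the lower side was not taken with this correction, so these lower counts have no background. With the correction edgeR called 0 members higher, where it called 0.0486% of all tested genes higher. The correction left values on both sides of 0, from -0.61 for Ndufa4l2 to 0.62 for Cox7b. Uqcrq was at 0.60 and Atp5l at 0.59, while Ndufa3 was at -0.37, Cox6b1 at -0.28 and Uqcrb at -0.32. None of these passed the test (smallest edgeR adjusted p 0.380). Sdha kept a negative value, -0.23, and Sdhb and Sdhd were both at 0.11.

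**Figure D4:**
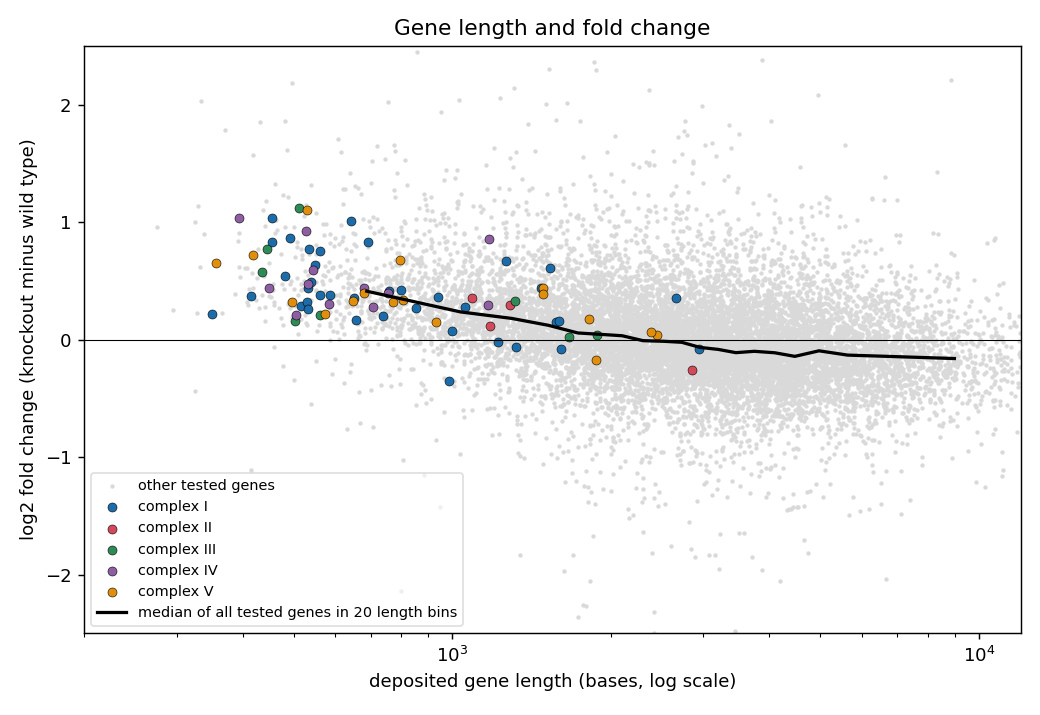
Log2 fold change (knockout minus wild type, y axis) against deposited gene length in bases (x axis, log scale) for all tested genes (grey) and the 79 tested members (coloured by complex), with the median of all tested genes in 20 length bins as a line. Genes beyond the axis limits are not drawn. The line falls with length, and the members scatter around it, from Uqcrq (1.12 at 511 bases) to Sdha (-0.26 at 2859 bases).

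In some tested members reads covered well under the full deposited length. Ndufa11, a membrane-arm subunit filed at 2661 bases, had a log2 fold change of 0.35 (SE 0.15), and reads covered 20.4% to 34.0% of it over the 8 libraries. Cox7b (1176 bases) was covered to 51.1% to 70.8% and Ndufa13 (1266 bases, log2 fold change 0.67, SE 0.25, named after its values were seen) to 39.3% to 46.7%. The median member was covered to 95.3% to 97.4% in each library. RPKM divides by the full deposited length, so the levels of these genes are set low relative to fully covered ones. With the length correction the log2 fold changes were 0.37 for Ndufa11, 0.47 for Ndufa13 and 0.62 for Cox7b, the last the highest of the members. The part of coverage in the distance from the length trend was not tested. Ndufs5 (540 bases, covered to 31.7% to 42.8%) had a length-corrected log2 fold change of 0.050, while Uqcrq, at 0.60, was covered to 94.1% to 98.8%. Against log2 covered bases (length times mean coverage) the correlation over the members was -0.59.

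Members of nearly the same length had different log2 fold changes. Between 503 and 529 bases stood Uqcrb (0.16), Cox6b1 (0.21), Ndufa1 (0.29), Ndufa2 (0.32), Cox6c (0.93), Atp5l (1.10) and Uqcrq (1.12). The members with the largest log2 fold changes were also the ones that differed most among the knockout libraries: the correlation of the coefficient of variation over these 5 libraries with the log2 fold change was 0.65 over 79 members. The coefficient was 37.6% for Uqcrq, 41.1% for Cox6c and 41.5% for Ndufb4, but 13.1% for Uqcr10, 11.2% for Cox8a and 7.26% for Ndufs7, whose groups did not overlap. GC content of the matched transcripts had a correlation of -0.032 with the log2 fold change over the 79 members, and of -0.15 over 12031 tested genes. The level in RPKM had one of 0.22 over the members.

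Other gene lists around the same pathway had medians of 0.040 to 0.26, and edgeR called 0 of their genes in either direction. Of all tested genes, 49.1% had positive log2 fold changes, and 7.73% were higher and 5.9% lower at an unadjusted p below 0.05 by edgeR. All knockout values lay above all wild-type ones in 4.26% of all tested genes. Among assembly factors, which build the complexes without staying in them, 25 of 38 tested genes had positive log2 fold changes, with a median of 0.26, which was 0.014 with the length correction and 0.31 without knockout library 1, and at an unadjusted p below 0.05 9 were higher and 0 lower. Cox14, an assembly factor of complex IV, had a log2 fold change of 0.64 (SE 0.16), and Uqcc2, one of complex III, was at 63.9 ± 13.4 against 38.5 ± 1.42 RPKM (log2 fold change 0.73, SE 0.20). Both had all knockout values above all wild-type ones. Among mitochondrial ribosomal proteins, which translate the subunits encoded by mitochondrial DNA, 65 of 76 tested genes had positive log2 fold changes, with a median of 0.19, which was -0.030 with the length correction and 0.21 without knockout library 1, and at an unadjusted p below 0.05 16 were higher and 0 lower. Mrpl27 was at 82.4 ± 16.7 against 49.7 ± 7.36 RPKM (log2 fold change 0.73, SE 0.21). For electron carriers and donors, 8 of 13 tested genes had positive log2 fold changes, with a median of 0.17, which was 0.0026 with the length correction and 0.27 without knockout library 1, and at an unadjusted p below 0.05 1 were higher and 0 lower. Cycs, cytochrome c itself, had a log2 fold change of 0.49 (SE 0.22), and Cyc1, the cytochrome c1 of complex III whose symbol keeps it out of the members, at 220.1 ± 23.7 against 172 ± 18.9 RPKM (log2 fold change 0.35, SE 0.16).

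In the citric acid cycle, which supplies NADH and succinate, 8 of 13 tested genes had positive log2 fold changes, with a median of 0.040, which was -0.12 with the length correction and 0.040 without knockout library 1, and at an unadjusted p below 0.05 0 were higher and 1 lower. The shares over all tested genes were 49.1% positive, and 7.73% higher and 5.9% lower at that threshold. Cs, citrate synthase, was at 42.3 ± 8.16 against 53.2 ± 15.8 RPKM (log2 fold change -0.35, SE 0.21), and its groups overlapped. Of the regulators of mitochondrial biogenesis, 11 of 17 tested genes had positive log2 fold changes, with a median of 0.16, which was 0.15 with the length correction and 0.22 without knockout library 1, and at an unadjusted p below 0.05 0 were higher and 2 lower. Peo1, the helicase that copies mitochondrial DNA, was at 7.36 ± 1.05 against 9.68 ± 0.668 RPKM (log2 fold change -0.41, SE 0.14), with all knockout values below all wild-type ones. Polrmt, the mitochondrial RNA polymerase, was likewise below, at 5.71 ± 0.936 against 7.02 ± 0.218 RPKM (log2 fold change -0.32, SE 0.14). All knockout values lay below all wild-type ones in 2.72% of all tested genes. Ppargc1b, a coactivator of respiratory genes, was at 0.643 ± 0.255 against 1.13 ± 0.494 RPKM (log2 fold change -0.86, SE 0.38), and its groups overlapped.

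Marker sums of other liver cell types also stood apart between the groups, narrowly for erythroid cells and not for Kupffer cells. Sinusoidal endothelial markers (5 genes, 0 of them called) summed to 169 to 204 CPM over the knockout libraries and 221 to 261 CPM over the wild-type ones, and stellate cell markers (4 genes, 0 called) to 176 to 248 CPM over the knockout libraries and 278 to 303 CPM over the wild-type ones. Erythroid markers (6 genes, 0 called, all 6 with positive log2 fold changes) summed to 72.5 to 206 CPM over the knockout libraries and 66.8 to 69.8 CPM over the wild-type ones, and Kupffer cell markers (5 genes, 0 called) to 346 to 511 CPM over the knockout libraries and 285 to 385 CPM over the wild-type ones. The hepatocyte sum given above was lower in every knockout library than in any wild-type one, with 0 of its 6 genes called and 2 with positive log2 fold changes. Most of that sum was Alb alone. It took 4.91, 8.42, 10.2, 9.66 and 10.1% of counted reads in knockout libraries 1 to 5 and 12.9, 12.2 and 11.6% in wild-type libraries 1 to 3. These sums were not corrected for the trend on gene length, and the part of gene length in them was not tested. The part of these cell types in the levels of the members was not tested either.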

How the data were processed

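The authors deposited 1 gene table with, per the file headers, for each gene and library a count of reads that map to 1 place, the percent of gene length covered, an RPKM value (reads per kilobase of gene length and M counted reads) and a gene length. The deposited RPKM equalled counts divided by length and column total. Per the labels, RNA was isolated with a column kit and libraries were made by standard Illumina methods; the sources used here do not name the aligner, the counting method, the strand setting, the genome build or the gene models. A dash was read as 0, and reads of 113 identifiers standing on 229 rows were summed.

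Counts were tested with edgeR 4.0.16 (R 4.3.3): filterByExpr, TMM scaling, quasi-likelihood F test of knockout against wild type without covariates, Benjamini-Hochberg adjustment over 12338 genes, and a threshold of 0.05. The SE is the log2 fold change divided by the square root of F. For the length correction, a lowess trend (span 0.3) of log2 CPM (prior count 2) relative to the gene mean on log2 length was taken out per library as an offset. DESeq2 1.42.0 was an alternative. GC content came from the GENCODE M21 transcript of the gene, by Entrez identifier, nearest to the deposited length. Python 3.11.15, pandas 2.3.3 and matplotlib 3.10.9 were used for the rest. The scripts were tested on simulated counts. A floor of 3 reads is 0.619 CPM in knockout library 1 and 0.278 to 0.335 CPM in the others.

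Members, lists and tests were chosen with earlier results of these data known. Named by rule were, per complex, the 4 members with the smallest p and the most abundant one, complex II, isoform families and the 3 shortest and 3 longest members, and from other lists up to 3 genes with the smallest p. All other genes were named by role or after their values were seen, and the values of 2 genes are not reported here.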

Additional observations from a re-analysis of the deposited data

Results flagged for a closer look

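Among 37 sets of values of the 5 knockout libraries, 2 held a library whose gap to its neighbour was over 0.71 of the whole range, the critical value for 5 samples; chance alone gives about 1 set in 20. Both concern knockout library 1 and complex II. For Sdha it was the highest, at 195 RPKM with the others between 148 and 157 RPKM, and for Sdhc the lowest, at 131 RPKM with the others between 158 and 164 RPKM. The check used RPKM without the TMM scaling, whose factor was largest in knockout library 1 (1.06). That scaling lowers this library against the others, which narrows the gap of Sdha and widens that of Sdhc. The check was not repeated with it. Without knockout library 1 the edgeR log2 fold changes were -0.32 for Sdha (adjusted p = 0.147) and 0.18 for Sdhc (adjusted p = 0.413).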

How the results depend on the processing

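With any single library left out, edgeR called 0 members higher and 0 lower, the median log2 fold change of the members ran from 0.27 to 0.51 and the number with positive values from 69 to 74. The number on the higher side at an unadjusted p below 0.05 was lowest (3) when wild-type library 2 was left out and highest (55) when wild-type library 3 was. DESeq2's Wald test called 1 member higher, and 24 without knockout library 1 (added after seeing the data). The median was 0.018 with the length correction, -0.0038 with it and without knockout library 1, 0.012 with it and the replicate block, and 0.050 with a GC correction added (chosen after seeing the data). The members with positive values then numbered 41, 38, 41 and 49. Size factors from DESeq2 in the edgeR fit gave a median of 0.35 and no filter on low counts 0.35 over all 83.

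With the replicate block alone the median was 0.30 with 73 positive, 2 members were on the higher side at an unadjusted p below 0.05 against 1.57% of all tested genes, and 8 genes were called in all against 28 without it; the labels state no shared source for a number, deviations of same-numbered libraries correlated at 0.12, -0.15 and -0.15 for numbers 1 to 3, and no wild-type library correlated best with its own number, so the numbers were not taken as a pairing.

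Of 561 values of 33 named members under the alternatives, 30 had the other sign, 29 of them with a length correction. With that correction alone these were -0.021 (Atp5g1), -0.076 (Atp5g2), -0.0054 (Atp5g3), -0.025 (Atp5k), -0.0015 (Cox6a1), -0.28 (Cox6b1), -0.37 (Ndufa3) and -0.091 (Sdhc). Without knockout library 1 as well they were -0.020 (Atp5g1), -0.11 (Atp5g2), -0.022 (Atp5k), -0.032 (Cox6a1), -0.38 (Cox6b1), -0.0038 (Cox7a2), -0.52 (Ndufa3) and -0.057 (Sdhc). With the replicate block as well they were -0.049 (Atp5g1), -0.041 (Atp5g2), -0.039 (Atp5g3), -0.036 (Atp5k), -0.017 (Cox4i1), -0.22 (Cox6b1), -0.27 (Ndufa3), -0.10 (Sdhc) and -0.0011 (Uqcr11). With the GC correction they were -0.030 (Atp5g2), -0.23 (Cox6b1), -0.32 (Ndufa3) and -0.026 (Sdhc). Without wild-type library 3 the value of Ndufa4l2, which was as low as -0.66 with another library left out, was 0.056. None of these passed the test. Knockout library 1 has the fewest reads and limits low members such as Cox7a1.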
